A study of Homo sapiens with 9 samples.

Results

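The HOX genes are the 39 homeobox genes of the 4 human HOX clusters, and they were taken as every entry whose gene symbol is HOX followed by A, B, C or D and a number. They are 39 of 60966 genes in the files, with 11 in HOXA, 10 in HOXB, 9 in HOXC and 9 in HOXD. H1299, a human cell line long established from a non-small cell lung carcinoma, had been transfected with a scrambled control siRNA (Scramble) or with Si-FIBP#1 or Si-FIBP#2, which are siRNAs against FIBP, a gene that encodes an intracellular binding partner of fibroblast growth factor. There were 3 samples per group, described by the submitters as independent, all from the same line, and the time after transfection was the same for every group. RNA-seq of poly(A)-selected RNA gave 1 table per sample with a level for each transcript, and the question here was which HOX genes H1299 cells use and whether FIBP depletion changed them.

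HOX proteins are transcription factors that bind DNA through their homeodomain, often together with PBX, MEIS or PKNOX proteins of the TALE family. In the embryo the genes of a cluster are switched on in the order in which they lie on the chromosome: low numbers, at the 3′ end of the cluster, act early and toward the head, and high numbers, at the 5′ end, act late and toward the tail. Genes with the same number in different clusters are paralogs, Polycomb and trithorax proteins hold clusters off or on after the embryonic signals are gone, and adult lung keeps HOX genes of the 3′ and middle parts active.

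Levels are FPKM, fragments scaled to the length of the transcript and the size of the library, summed over the transcripts of a gene, so genes can be compared per length. FIBP itself fell from 88.38, 79.49 and 77.74 FPKM in Scramble to 7.49, 7.77 and 4.30 with Si-FIBP#1 and to 7.13, 5.92 and 8.21 with Si-FIBP#2, which is 8.0% and 8.7% of the Scramble mean. The steps of the lowest values placed the depth at about 15860000 to 18940000 fragments per sample, at which 3 fragments on a transcript of 2000 nt are worth 0.0792 to 0.0946 FPKM. Of 6 epithelial markers, KRT18, KRT8 and KRT7 passed the filter, EPCAM and KRT19 did not exceed 0.29 FPKM in any sample and CDH1 was listed at 0 in all 9 samples. The 6 lung lineage markers summed to at most 0.69 FPKM and the 5 blood and vessel markers to at most 0.48 FPKM in any sample. The summed epithelial markers lay between 584.71 and 595.72 FPKM in Scramble, between 271.57 and 309.47 under Si-FIBP#1 and between 214.62 and 290.05 under Si-FIBP#2, mostly through KRT18, and the part of this shift in the HOX results below was not tested. In these bulk samples fewer cells of a type and less RNA per cell cannot be told apart.

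In Scramble cells 24 of the 39 HOX genes had a mean of at least 1 FPKM: 8 of 11 in HOXA, 8 of 10 in HOXB, 6 of 9 in HOXC and 2 of 9 in HOXD. All HOX genes together summed to 296.77, 303.15 and 293.99 FPKM in the 3 Scramble samples. HOXB held 54.75% ± 0.98 (SD, n = 3) of this sum, HOXC 24.12% ± 0.82, HOXA 18.85% ± 0.14 and HOXD 2.28% ± 0.04. H1299 cells thus used a broad run of HOXA, HOXB and HOXC and, in HOXD, HOXD8 and HOXD9.

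**Figure D1:**
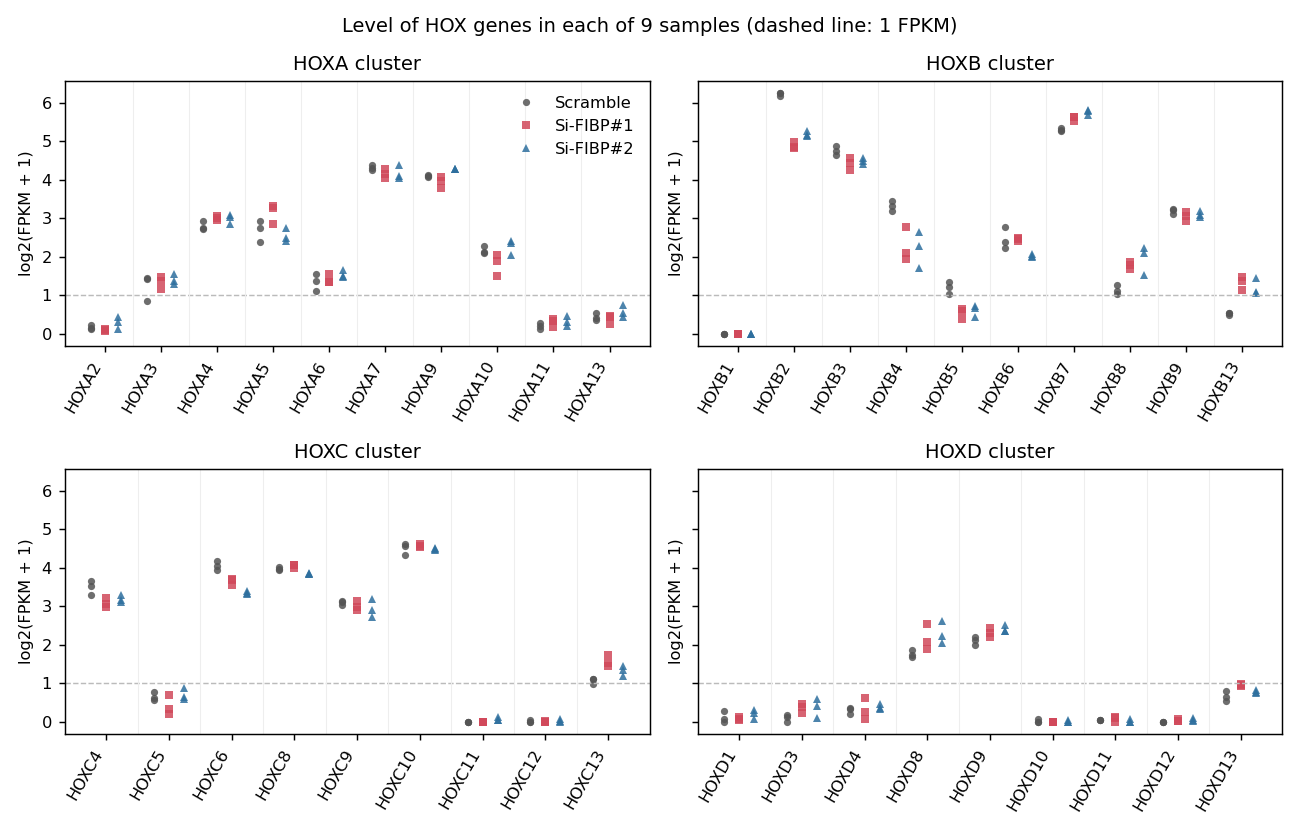
Level of HOX genes, as log2(FPKM + 1) on the vertical axis, in 4 panels for the 4 clusters with genes ordered by number; each point is 1 sample, grey for Scramble, red for Si-FIBP#1 and blue for Si-FIBP#2. HOXB2 is the highest gene in Scramble and lies below HOXB7 in all 6 depleted samples, and HOXD holds its levels in HOXD8 and HOXD9.

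By Scramble mean the order began with HOXB2 at 73.7 FPKM, HOXB7 at 38.7 and HOXB3 at 26.2, and the ranges of these 3 genes did not overlap with each other or with the next gene. The place of HOXB3 rests on transcripts that the authors assembled from the reads. With annotated transcripts alone its Scramble mean was 12.9 FPKM, below HOXC10 at 20.7 and HOXA7 at 18.9. HOXC10 at 21.7 and HOXA7 at 18.9 overlapped in range and did not differ beyond their spread. HOXA9, HOXC6 and HOXC8 followed at 16.2, 15.7 and 14.8 FPKM, with ranges that overlapped from one to the next. Among all genes tested, HOXB2 lay above 90.0% to 90.6% in the 3 Scramble samples.

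On GRCh38, by GENCODE release 29, HOXB runs over 200.7 kb (chr17:48528526-48729178, minus strand), HOXC over 117.3 kb (chr12:53938765-54056030, plus strand) and HOXD over 98.0 kb (chr2:176092891-176190907, plus strand). In HOXD the neighbours HOXD8 and HOXD9, at 2.41 and 3.32 FPKM in Scramble, lie beside HOXD10, HOXD11 and HOXD12, which stayed at or below 0.09 FPKM in all 9 samples. The promoters of HOXD8 and of HOXD10, 1 gene listed with transcript and 1 close to none, are shown because they lie in the same cluster on the same strand. They are RefSeq windows of 250 bases before to 50 bases after the start of the transcript on GRCh38.p14, 5′ to 3′, with CpG in capitals, at chr2:176129455-176129754 for HOXD8 and chr2:176116528-176116827 for HOXD10, both on the plus strand.
HOXD8: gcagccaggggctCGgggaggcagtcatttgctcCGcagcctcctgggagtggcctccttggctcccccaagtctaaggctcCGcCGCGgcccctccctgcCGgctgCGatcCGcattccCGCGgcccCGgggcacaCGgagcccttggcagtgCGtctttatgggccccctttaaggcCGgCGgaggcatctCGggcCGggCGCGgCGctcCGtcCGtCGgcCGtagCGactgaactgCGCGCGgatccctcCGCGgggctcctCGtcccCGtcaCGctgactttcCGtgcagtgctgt
HOXD10: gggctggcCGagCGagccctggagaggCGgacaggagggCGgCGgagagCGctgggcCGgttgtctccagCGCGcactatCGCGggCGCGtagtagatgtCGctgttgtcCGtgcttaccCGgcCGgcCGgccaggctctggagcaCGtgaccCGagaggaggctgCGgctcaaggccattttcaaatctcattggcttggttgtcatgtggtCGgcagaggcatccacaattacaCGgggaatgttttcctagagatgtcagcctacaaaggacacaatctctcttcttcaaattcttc
The HOXD8 window held 34 CpG and the HOXD10 window 23, against a median of 14 over 35116 promoter windows of the same length, so both the active and the nearly silent gene had more CpG than the typical promoter. Over the 27 windows found for 20 HOX genes, with a window shared by HOXC4 and HOXC5 counted for both, the number of CpG ran from 0 to 44 with a median of 22.0. The letters of a TATA box (TATAAA, on either strand) were in 5 of the 27 windows, in HOXA3, HOXA9, both windows of HOXA10 and HOXD13, against 11.5% of all windows. The palindromic letters bound by STAT factors, TTCNNNGAA with N for any base, were in 0 of the 27 windows, against 7.7% of all windows. Of the 27 windows 7 belong to HOXA3, and no window was found for HOXB2 to HOXB9, HOXB13, HOXC6 to HOXC13, HOXA5 or HOXD9, so the promoters of HOXB2 and HOXB4 and of most HOX genes with transcript in HOXB and HOXC were not searched.

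FIBP depletion lowered HOXB2 and HOXB4 by more than 2-fold with each siRNA, and no other HOX gene was called lower against Scramble. HOXB5 went below a group mean of 1 FPKM with each siRNA, and HOXB13 went above it. That level is also the limit for entering the test. HOXB5 met it through its Scramble samples only and HOXB13 through its depleted samples only, so these crossings are no test. The test covered the 25 HOX genes, among 14985 genes in all, that reached 1 FPKM in 3 samples or more, and a gene was called when its adjusted p was below 0.05 and its level on log2(FPKM + 1) changed more than 2-fold. With Si-FIBP#1, 2 HOX genes were called, HOXB2 and HOXB4, both lower, against 5.66% of all genes tested. With Si-FIBP#2, 3 were called, among them HOXB2 and HOXB4, both lower, against 5.05%. With the 6 depleted samples pooled against Scramble 3 were called, HOXB2 and HOXB4 among them, against 4.81%. Between Si-FIBP#2 and Si-FIBP#1 limma called 0 HOX genes, against 0.561% of all genes, and 5 HOX genes passed the adjusted p alone, 2 of them higher and 3 lower with Si-FIBP#2, where 9.58% of all genes were higher and 5.8% lower. Each siRNA was compared with the same 3 Scramble samples, so the comparisons share their controls.

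By the adjusted p alone, Si-FIBP#1 left 6 of 25 HOX genes higher and 6 lower, where 27.8% of all genes tested were higher and 19.9% lower. Si-FIBP#2 left 6 higher and 7 lower, where 31.1% of all genes were higher and 17.7% lower. These shares are near the background, so the number that moved is no result about HOX genes. Scaling each sample by the median ratio to the others turned the first split to 5 higher and 8 lower and the second to 4 higher and 9 lower, while of all genes 22.5% were then higher and 24.1% lower for Si-FIBP#1, beside 22.3% and 24.5% for Si-FIBP#2. The median log2 change of the 25 HOX genes was 0.07 for Si-FIBP#1, where that of all genes tested was also 0.07, and -0.01 for Si-FIBP#2, where that of all genes was 0.11. All 6 depleted samples lay above all 3 Scramble samples for 6 of 25 genes, HOXB7, HOXB8, HOXB13, HOXC13 and HOXD8 among them, against 26.3% of all genes, and below them for HOXB2, HOXB3, HOXB4, HOXB5 and HOXC6, 5 of 25 against 16.5%. HOXB5 passed the filter through its Scramble samples only and HOXB13 through its depleted samples only, so a difference in these 2 genes was built into their selection. HOXC13 reached 1 FPKM in 2 Scramble samples, so it entered the test with the help of its higher depleted samples. There were 21 HOX genes that had at least 1 FPKM in all 9 samples, of which Si-FIBP#1 left 4 higher and 5 lower by the adjusted p, and Si-FIBP#2 left 5 higher and 6 lower. The shares over all genes that meet this stricter limit were not taken, so these counts are no result about HOX genes.

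HOXB, the cluster with the highest summed level, held both genes called lower with each siRNA and also members that rose. HOXB2, HOXB3 and HOXB4, which lie next to each other toward the 3′ end, were lower with both siRNAs, and HOXB7 and HOXB8, farther toward the 5′ end, were higher. HOXB3 was lower by less than 2-fold and did not pass with annotated transcripts alone (adjusted p = 0.2187 and 0.4728). HOXB5 and HOXB13 are described with no p, since each passed the filter only through the group in which it was high. HOXB6 passed the adjusted p as lower with Si-FIBP#2 alone, and HOXB9 did not pass with either siRNA.

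**Figure D2:**
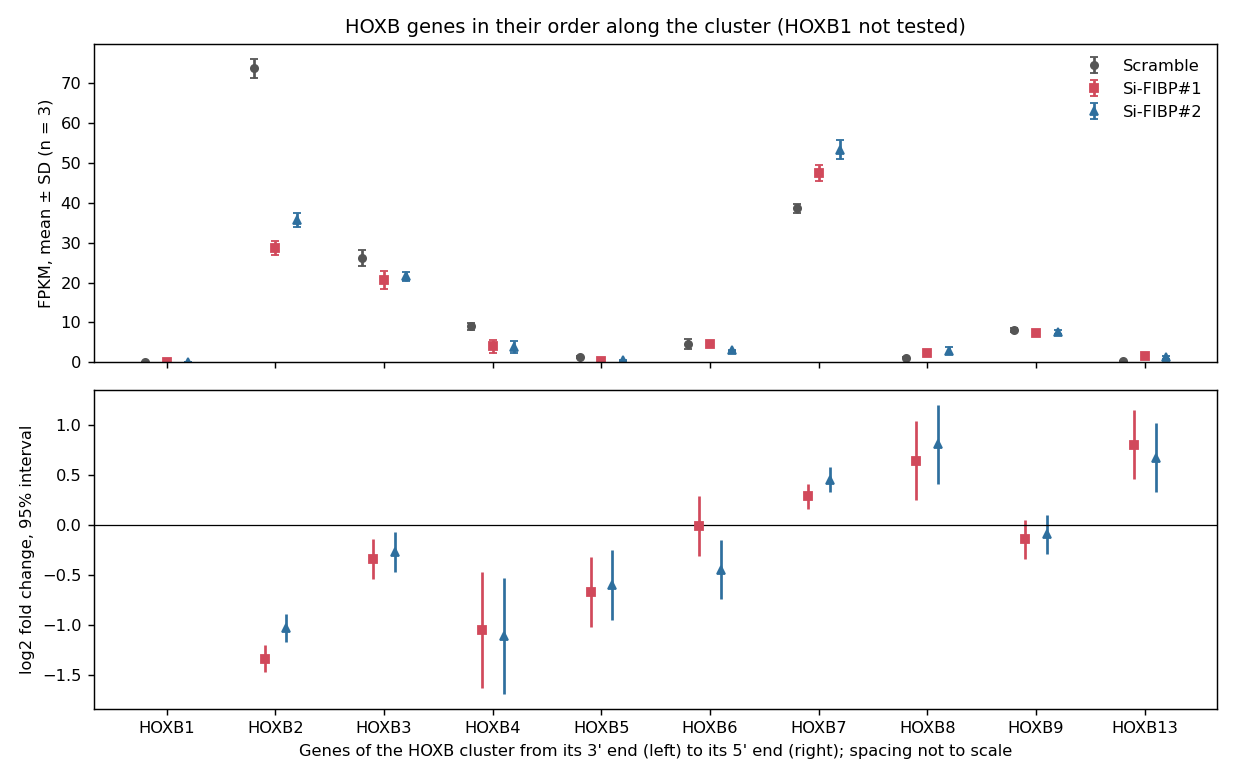
Genes of the HOXB cluster from HOXB1 at the 3′ end to HOXB13 at the 5′ end on the horizontal axis, not to scale; the upper panel gives the mean FPKM ± SD (n = 3) in each group and the lower panel the log2 fold change against Scramble with its 95% interval. The points for HOXB2 to HOXB5 lie below 0 with both siRNAs, and those for HOXB7, HOXB8 and HOXB13 lie above 0, where HOXB5 and HOXB13 passed the filter only through the group in which they were high, so that their intervals are no test.

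HOXB2, which patterns the hindbrain and its nerves in the embryo, was listed at 74.71, 75.27 and 71.00 FPKM in Scramble, at 27.54, 27.74 and 30.78 with Si-FIBP#1 and at 34.23, 37.58 and 35.13 with Si-FIBP#2. The groups did not overlap, and all samples with Si-FIBP#1 lay below all with Si-FIBP#2. The log2 change was -1.33 ± 0.06 (SE; adjusted p = 6.18e-07) with Si-FIBP#1 and -1.03 ± 0.06 (adjusted p = 2.38e-06) with Si-FIBP#2, which leaves 38.9% and 48.4% of the Scramble mean. Without replicate 1 of Si-FIBP#2 its change was -0.999, just short of 2-fold. The difference between the siRNAs was itself past the threshold, at 0.30 ± 0.06 (adjusted p = 0.0109). Both of its larger transcripts fell: ENST00000330070, protein-coding, from 64.4 to 27.1 and 33.3 FPKM, and ENST00000571287, a processed transcript, from 8.28 to 1.29 and 1.92 FPKM, and neither overlapped between Scramble and the depleted samples.

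An siRNA can also lower mRNAs that match bases 2 to 8 of its guide strand, so the 3′ UTR of 1 transcript per gene in GENCODE release 29 was searched for the 7 letters that pair with them. These are TTCAGCA for Si-FIBP#1, while those of Si-FIBP#2 are TTTGCTA. Among the 25 HOX genes tested, 0 held the Si-FIBP#1 letters and 1, HOXB2, held the Si-FIBP#2 letters, once, at bases 99 to 105 of the 3′ UTR of ENST00000330070. The site is shown because HOXB2 was called lower and is the tested HOX gene that holds such a match, with the matching letters in capitals.
HOXB2 3′ UTR: acttatgtgtTTTGCTAaaattcaggt
Whether the match bears on the level of HOXB2 was not tested. Of 11852 genes tested that have a 3′ UTR in the annotation, 16.9% held the Si-FIBP#1 letters and 16.8% the Si-FIBP#2 letters.

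HOXB4, known for the expansion of blood stem cells when it is overexpressed, was listed at 8.92, 9.94 and 8.15 FPKM in Scramble, at 3.27, 5.90 and 2.85 with Si-FIBP#1 and at 5.28, 2.27 and 3.82 with Si-FIBP#2. Every depleted sample lay below every Scramble sample, but the depleted samples varied by more than 2-fold among themselves. Of its exon bases 17.1% are shared on the same strand with HOXB3, AC103702.1 or MIR10A, and what the split of those reads did to its level was not tested. The log2 change was -1.04 ± 0.26 (SE; adjusted p = 0.0082) with Si-FIBP#1 and -1.11 ± 0.26 (adjusted p = 0.0059) with Si-FIBP#2. Leaving out 1 sample at a time moved these between -1.30 and -0.88 and between -1.33 and -0.86, past the adjusted p each time. The 2-fold limit was missed for Si-FIBP#1 without Scramble replicate 2 (-0.98) or without its own replicate 1 (-0.95) or 3 (-0.88), and for Si-FIBP#2 without its replicate 2 (-0.86).

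HOXB3, at the 3′ side of HOXB4, was listed at 28.23, 26.03 and 24.23 FPKM in Scramble, at 22.70, 18.25 and 20.84 with Si-FIBP#1 and at 22.85, 20.46 and 21.39 with Si-FIBP#2. All depleted samples lay below Scramble, while the siRNA groups overlapped with each other, and the log2 changes were -0.33 (adjusted p = 0.0119) and -0.27 (adjusted p = 0.0322). In Scramble 50.7% of the level came from transcripts that the authors assembled from the reads and that have no annotated name, the longest of 13913 nt. With annotated transcripts alone the changes did not pass, with adjusted p = 0.2187 and 0.4728. The change with Si-FIBP#2 no longer passed under 6 of 17 alternatives. Among them were fits without replicate 1 or 2 of Scramble or without replicate 2 or 3 of Si-FIBP#2.

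HOXB5, a gene with a role in branching of the embryonic lung, was listed at 1.06, 1.32 and 1.53 FPKM in Scramble, at 0.51, 0.30 and 0.55 with Si-FIBP#1 and at 0.65, 0.35 and 0.58 with Si-FIBP#2. All 6 depleted samples were below 1 FPKM, at 34.8% and 40.4% of the Scramble mean by group. On log2(FPKM + 1), which understates changes of low genes, the change was -0.66 and -0.59, which describes a gene that passed the filter through its Scramble samples only. HOXB1, the first gene of the cluster, was listed at 0 in all 9 samples.

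HOXB7, whose overexpression is known from several carcinomas, was listed at 37.87, 38.16 and 39.93 FPKM in Scramble, at 45.22, 48.37 and 48.99 with Si-FIBP#1 and at 54.62, 50.57 and 54.74 with Si-FIBP#2. The 3 groups did not overlap with each other. The log2 change was 0.29 ± 0.06 (SE; adjusted p = 0.0020) with Si-FIBP#1 and 0.45 ± 0.06 (adjusted p = 1.50e-04) with Si-FIBP#2, both under 2-fold, and the difference between the siRNAs did not pass (0.16, 95% interval 0.04 to 0.29, adjusted p = 0.0797).

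With HOXB2 lower and HOXB7 higher, the most abundant HOX gene changed. The ratio of HOXB7 to HOXB2 was 0.507, 0.507 and 0.562 in Scramble, 1.642, 1.744 and 1.592 under Si-FIBP#1, and lay at 1.596, 1.346 and 1.558 under Si-FIBP#2. HOXB2 ranked first among HOX genes in all 3 Scramble samples and second, after HOXB7, in all 6 depleted samples. This ratio within a sample does not depend on how samples are scaled to each other.

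HOXB8, a gene that keeps myeloid progenitors immature when overexpressed, was listed at 1.06, 1.40 and 1.15 FPKM in Scramble, at 2.48, 2.65 and 2.21 with Si-FIBP#1 and at 3.25, 1.88 and 3.67 with Si-FIBP#2. Its log2 changes were 0.65 (adjusted p = 0.0130) and 0.81 (adjusted p = 0.0040), and the group means were 203.3% and 243.8% of Scramble. HOXB13, a partner of the androgen receptor in prostate, stands apart from the rest of its cluster at the 5′ end and was below 1 FPKM in Scramble. It was listed at 0.45, 0.46 and 0.41 FPKM in Scramble, at 1.22, 1.60 and 1.76 with Si-FIBP#1 and at 1.12, 1.74 and 1.10 with Si-FIBP#2. The log2 changes of 0.81 and 0.68 describe a gene that passed the filter through its depleted samples only.

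HOXB6 was listed at 5.89, 3.70 and 4.20 FPKM in Scramble, at 4.63, 4.53 and 4.32 with Si-FIBP#1 and at 2.99, 3.17 and 3.04 with Si-FIBP#2. Its samples with Si-FIBP#2 lay below all others, with a log2 change of -0.44 (adjusted p = 0.0204), while the change with Si-FIBP#1 was -0.01 (95% interval -0.31 to 0.29). Most of its level, 65.3% in Scramble, came from assembled transcripts, and its exons share bases with HOXB3 and with the antisense gene HOXB-AS3. The change with Si-FIBP#2 no longer passed under 4 of 16 alternatives (adjusted p up to 0.2583). These are annotated transcripts only, no filter and leaving out replicate 1 or 3 of Si-FIBP#2. HOXB9 was listed at 7.59, 8.52 and 8.23 FPKM in Scramble, at 7.96, 7.28 and 6.59 with Si-FIBP#1 and at 7.52, 7.15 and 8.05 with Si-FIBP#2, with log2 changes of -0.14 (95% interval -0.34 to 0.05) and -0.09 (95% interval -0.28 to 0.11).

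**Figure D3:**
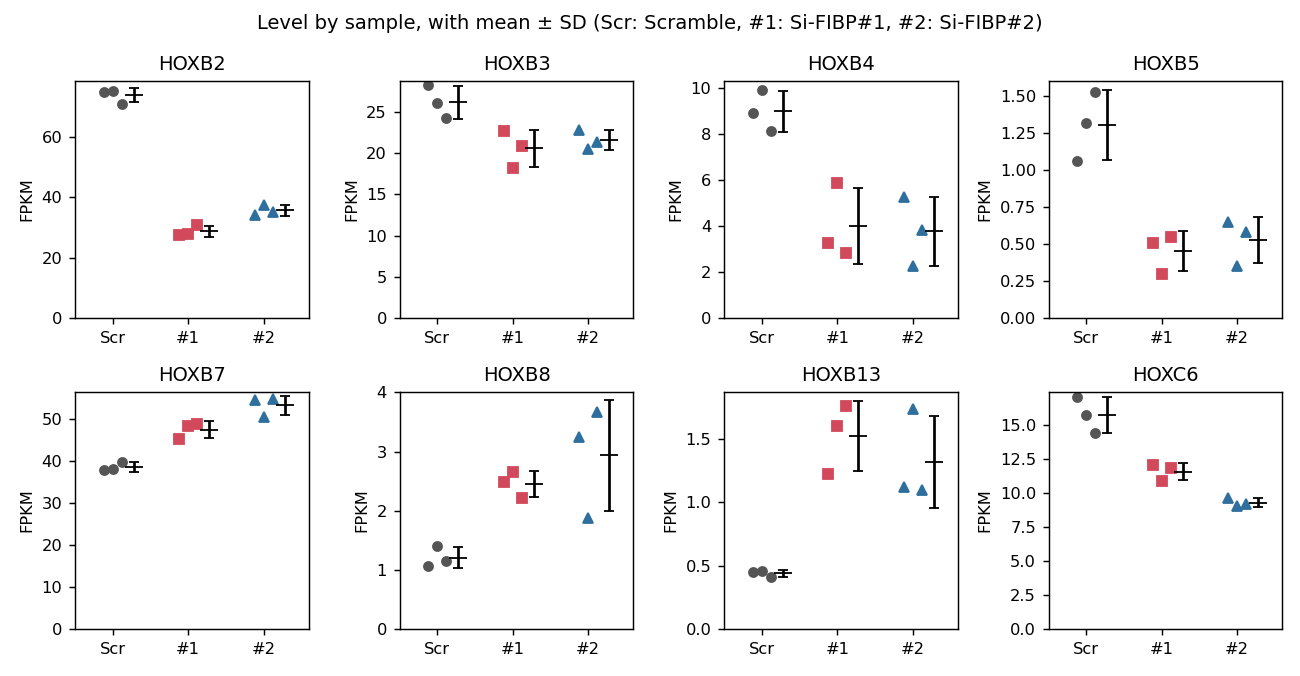
FPKM in each sample (points) with the group mean ± SD (n = 3, black) for HOXB2, HOXB3, HOXB4, HOXB5, HOXB7, HOXB8, HOXB13 and HOXC6, each on its own vertical axis from 0. In each of the 8 panels all 6 depleted samples lie on one side of the 3 Scramble samples, lower in HOXB2, HOXB3, HOXB4, HOXB5 and HOXC6 and higher in HOXB7, HOXB8 and HOXB13. The panels hold only genes with such a separation, which HOXC13 and HOXD8, not shown, also have. HOXB5 and HOXB13 passed the filter only through the group in which they were high.

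In HOXA, HOXA5, which is needed for the normal growth of the airways in mice, was listed at 4.26, 5.66 and 6.60 FPKM in Scramble, at 8.68, 9.02 and 6.23 with Si-FIBP#1 and at 5.76, 4.61 and 4.32 with Si-FIBP#2. Scramble overlapped with both siRNA groups, while the 2 siRNA groups did not overlap. The test gave log2 changes of 0.47 (adjusted p = 0.0454) with Si-FIBP#1 and -0.13 (adjusted p = 0.5444) with Si-FIBP#2, and the siRNAs differed by -0.60 (adjusted p = 0.0418). The change with Si-FIBP#1 against Scramble no longer passed under 12 of 17 alternatives (adjusted p up to 0.1482). Among them were TPM and median ratio scaling. So were fits that left out replicate 1 or 2 of Scramble, 1 or 2 of Si-FIBP#1 or 2 or 3 of Si-FIBP#2.

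HOXA9, a gene of blood progenitors that is often high in acute leukemia, was listed at 15.75, 16.54 and 16.26 FPKM in Scramble, at 12.81, 15.96 and 14.69 with Si-FIBP#1 and at 18.39, 18.54 and 18.44 with Si-FIBP#2. Neither change against Scramble passed, at -0.16 (adjusted p = 0.1273) and 0.18 (adjusted p = 0.0811), but the siRNAs differed by 0.33 (adjusted p = 0.0190). Its transcripts moved unequally: ENST00000343483, of 2064 nt, rose from 5.42, 5.01 and 4.18 FPKM in Scramble to 7.25 or more in all 6 depleted samples, while ENST00000497089, a processed transcript, went from a mean of 4.56 to 2.50 and 3.06 FPKM with overlapping samples. ENST00000396345, of 797 nt and the most abundant in Scramble, went from a mean of 6.08 FPKM to 3.65 with Si-FIBP#1 and 5.46 with Si-FIBP#2. Its samples with Si-FIBP#1 lay below all Scramble samples, and those with Si-FIBP#2 overlapped with Scramble. Single transcripts were not tested, and how the authors' software shares reads between transcripts of a gene bears on these values.

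HOXA3, HOXA4, HOXA6, HOXA7 and HOXA10 did not pass in any comparison. HOXA7 was listed at 18.90, 19.97 and 17.95 FPKM in Scramble, at 15.66, 18.59 and 16.87 with Si-FIBP#1 and at 16.02, 19.80 and 15.64 with Si-FIBP#2. HOXA4 was listed at 5.67, 6.66 and 5.60 FPKM in Scramble, at 6.70, 7.11 and 7.36 with Si-FIBP#1 and at 7.13, 6.28 and 7.55 with Si-FIBP#2. HOXA10, a paralog of HOXC10 and HOXD10, was listed at 3.90, 3.27 and 3.33 FPKM in Scramble, at 1.85, 2.68 and 3.10 with Si-FIBP#1 and at 3.12, 4.17 and 4.31 with Si-FIBP#2. The samples with Si-FIBP#1 were below all Scramble samples for HOXA10, yet the log2 change of -0.36 missed the threshold (95% interval -0.71 to -0.01, adjusted p = 0.0837). For HOXA7 the 95% interval was -0.37 to 0.07 for the first siRNA, beside -0.36 to 0.08 for the other. The antisense gene HOXA-AS3, which was at 0.16 FPKM in Scramble, covers 62.5% of the exon bases of HOXA7.

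HOXA3 and HOXA6 were near the limit of the filter. HOXA3 was listed at 1.68, 0.80 and 1.72 FPKM in Scramble, at 1.76, 1.24 and 1.58 with Si-FIBP#1 and at 1.94, 1.43 and 1.59 with Si-FIBP#2. HOXA6 was listed at 1.95, 1.15 and 1.59 FPKM in Scramble, at 1.95, 1.53 and 1.52 with Si-FIBP#1 and at 1.84, 2.13 and 1.78 with Si-FIBP#2. Assembled transcripts made up 68.6% and 76.8% of their Scramble levels, and with annotated transcripts alone neither gene reached a mean of 1 FPKM in Scramble.

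HOTAIRM1, a noncoding gene of the HOXA cluster, was listed at 5.90, 6.54 and 14.49 FPKM in Scramble, at 22.28, 14.01 and 15.62 with Si-FIBP#1 and at 11.57, 17.42 and 10.46 with Si-FIBP#2. Its Scramble samples overlapped with those of both siRNAs, through the third Scramble sample, and it passed the adjusted p with Si-FIBP#1 (log2 change 0.95, adjusted p = 0.0284) and not with Si-FIBP#2 (0.57, adjusted p = 0.1496). The labels do not state that the libraries kept the strand, so reads of genes that overlap on opposite strands cannot be told apart.

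HOXC was the cluster with the second highest sum, and HOXC6 its member with the clearest change. HOXC6, a gene of the thoracic region, was listed at 17.01, 15.68 and 14.37 FPKM in Scramble, at 12.04, 10.83 and 11.79 with Si-FIBP#1 and at 9.63, 9.0 and 9.16 with Si-FIBP#2. The 3 groups did not overlap. Its log2 changes were -0.41 ± 0.08 (SE; adjusted p = 0.0020) with Si-FIBP#1 and -0.70 ± 0.08 (adjusted p = 8.12e-05) with Si-FIBP#2, and the siRNAs differed by -0.29 (adjusted p = 0.0343).

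HOXC4 was listed at 8.75, 10.66 and 11.57 FPKM in Scramble, at 8.35, 6.92 and 7.35 with Si-FIBP#1 and at 8.76, 7.68 and 7.93 with Si-FIBP#2. The log2 changes were -0.40 (adjusted p = 0.0127) and -0.31 (adjusted p = 0.0412), and 1 sample with Si-FIBP#2 lay just above the lowest Scramble sample. The fall lay in assembled transcripts, which made up 67.8% of the Scramble level: the largest of them, of 2023 nt, went from a mean of 5.43 to 3.35 and 2.69 FPKM. With annotated transcripts alone the change with Si-FIBP#2 was 0.22 and did not pass (adjusted p = 0.2227), so the direction for HOXC4 depends on those transcripts. The adjusted p was missed under 2 of 17 alternatives for Si-FIBP#1, among them leaving out Scramble replicate 3. For Si-FIBP#2 it was missed under 9 of 17, of which 5 left out 1 sample.

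RefSeq gives HOXC4 and HOXC5 the same promoter window, chr12:54016638-54016937 on the plus strand of GRCh38.p14, and it is shown with CpG in capitals because the HOXC4 gene begins there in GENCODE release 29 as well. Which of the measured HOXC4 transcripts start there was not examined, and 67.8% of its Scramble level came from assembled transcripts. The HOXC5 transcript that was measured starts farther downstream, at position 54032853.
HOXC4 and HOXC5: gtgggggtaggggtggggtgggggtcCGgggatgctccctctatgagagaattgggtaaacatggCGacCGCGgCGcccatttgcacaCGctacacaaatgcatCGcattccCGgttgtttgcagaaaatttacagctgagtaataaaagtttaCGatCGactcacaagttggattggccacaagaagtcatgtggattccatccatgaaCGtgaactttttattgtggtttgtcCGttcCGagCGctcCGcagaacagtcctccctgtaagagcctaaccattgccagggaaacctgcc
The window held 15 CpG, close to the median of 14 over all promoters. HOXC4 had a Scramble mean of 10.3 FPKM and HOXC5 one of 0.58 FPKM, and HOXC5 stayed at or below 0.85 FPKM in all 9 samples. In the annotation HOXC4 and HOXC6 also share exon bases, which make up 17.8% of HOXC4 (counted with those shared with HOXC5) and 15.7% of HOXC6 (counted with those shared with HOXC5 and HOXC9), so reads could be divided between these genes.

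HOXC8, HOXC9 and HOXC10 did not pass against Scramble with either siRNA. HOXC8 was listed at 14.39, 14.78 and 15.32 FPKM in Scramble, at 15.95, 14.97 and 16.00 with Si-FIBP#1 and at 13.72, 13.27 and 13.44 with Si-FIBP#2. HOXC9 was listed at 7.88, 7.70 and 7.27 FPKM in Scramble, at 7.77, 6.87 and 6.57 with Si-FIBP#1 and at 5.63, 8.11 and 6.45 with Si-FIBP#2. HOXC10, a gene of the lumbar region and hindlimb, was listed at 19.12, 23.44 and 22.56 FPKM in Scramble, at 23.50, 22.60 and 22.18 with Si-FIBP#1 and at 21.71, 21.55 and 21.25 with Si-FIBP#2. The 95% intervals ran from -0.10 to 0.24 and from -0.18 to 0.16 for HOXC10, and from -0.36 to 0.17 and from -0.43 to 0.09 for HOXC9. HOXC8 differed between the siRNAs by -0.20 (adjusted p = 0.0491).

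HOXC13, which controls hair keratins, lies at the 5′ end and was listed at 1.18, 1.17 and 0.99 FPKM in Scramble, at 1.74, 2.36 and 1.89 with Si-FIBP#1 and at 1.55, 1.76 and 1.28 with Si-FIBP#2. All 6 depleted samples were above Scramble, with log2 changes of 0.50 (adjusted p = 0.0110) and 0.26 (adjusted p = 0.1335). Only 2 Scramble samples of HOXC13 reached 1 FPKM, so it entered the test with the help of its higher depleted samples. Its adjusted p is thus no clean test. HOXC11 and HOXC12, the genes next to it, did not exceed 0.10 FPKM in any sample.

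HOXD8 was listed at 2.67, 2.24 and 2.33 FPKM in Scramble, at 2.74, 3.25 and 4.85 with Si-FIBP#1 and at 3.67, 5.17 and 3.12 with Si-FIBP#2. HOXD9 was listed at 2.97, 3.35 and 3.65 FPKM in Scramble, at 4.42, 3.97 and 3.61 with Si-FIBP#1 and at 4.13, 4.73 and 4.13 with Si-FIBP#2. Both genes passed the adjusted p with Si-FIBP#2, at 0.53 (adjusted p = 0.0422) and 0.30 (adjusted p = 0.0360), and not with Si-FIBP#1, at 0.41 (adjusted p = 0.1011) and 0.21 (adjusted p = 0.1254). Under the median ratio scaling neither passed. In all, the adjusted p with Si-FIBP#2 was missed under 9 of 16 alternatives for HOXD8 (up to 0.1378) and 10 of 16 for HOXD9 (up to 0.1387). Of these, 6 each left out 1 sample.

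The 14 HOX genes that were not tested stayed below 1 FPKM in every sample. They are HOXA2, HOXA11 and HOXA13, HOXB1, HOXC5, HOXC11 and HOXC12, and HOXD1, HOXD3, HOXD4, HOXD10, HOXD11, HOXD12 and HOXD13. The highest single values among them were 0.97 FPKM for HOXD13, a gene of digits and the urogenital tract, 0.85 for HOXC5 and 0.68 for HOXA13. HOXB1, HOXC11, HOXC12, HOXD10, HOXD11 and HOXD12 were at or below 0.10 FPKM throughout, which is near or below the worth of 3 fragments. At this depth at most a trace of their transcript was seen.

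**Figure D4:**
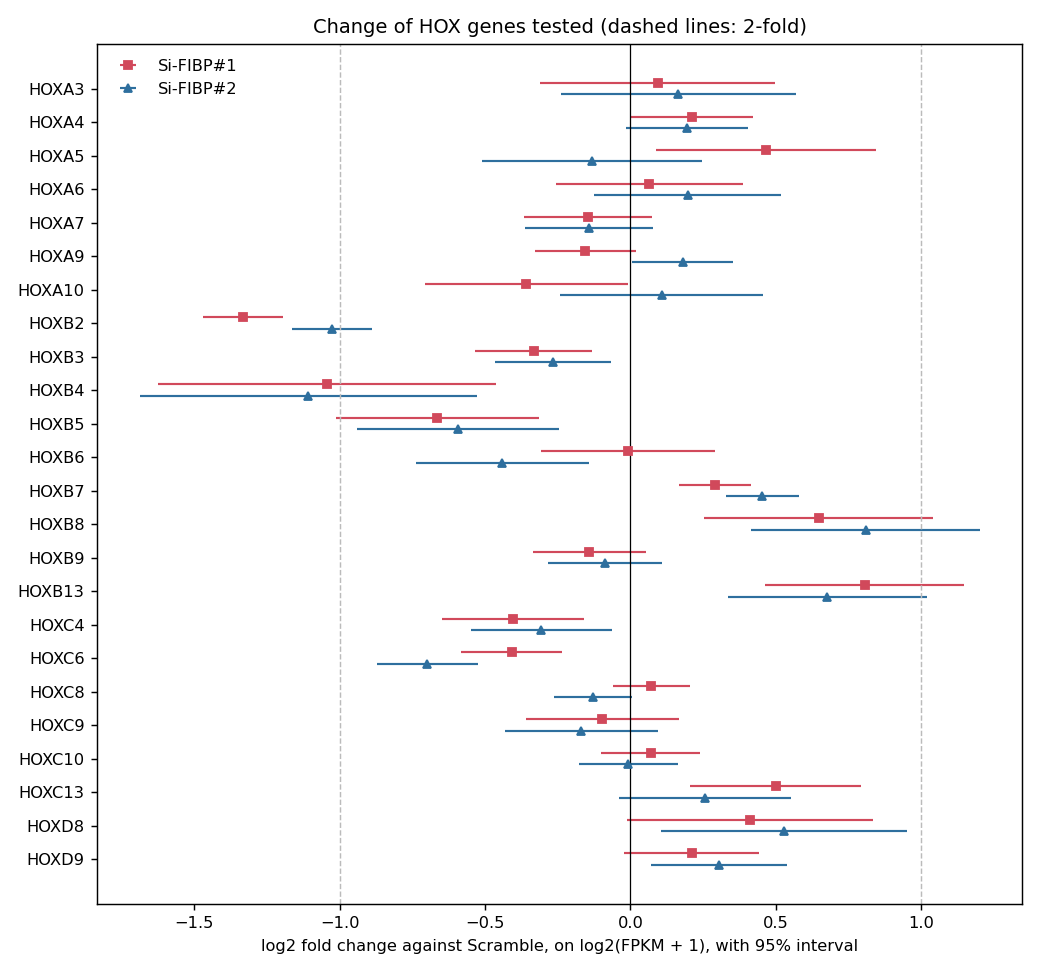
Log2 fold change on log2(FPKM + 1) with its 95% interval on the horizontal axis for HOX genes tested, red for Si-FIBP#1 and blue for Si-FIBP#2 against the same 3 Scramble samples; dashed lines mark 2-fold. HOXB2 and HOXB4 lie past 2-fold to the left with both siRNAs, and the points of HOXB7, HOXB8 and HOXB13 lie between 0 and 2-fold to the right, HOXB13 having passed the filter through its depleted samples only.

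Summed over all members, HOX transcript was lower in depleted cells, namely 249.60, 253.49 and 252.91 FPKM for Si-FIBP#1 beside 265.30, 264.01 and 261.13 for Si-FIBP#2. Most of the loss lay in HOXB, where the sum went from 163.1 ± 3.8 (SD, n = 3) to 117.0 ± 1.7 and 129.7 ± 4.0 FPKM, and of that mostly in HOXB2. The HOXB share of the sum fell to 46.43% ± 0.52 and 49.24% ± 1.60. HOXA went from 56.2 to 58.8 and 62.5 FPKM, HOXC from 71.9 to 66.9 and 61.4, and HOXD from 6.79 to 9.27 and 9.89. The HOXC sum lay at 60.10 to 62.05 FPKM with Si-FIBP#2, below all Scramble samples (68.82 to 74.14), whereas that of Si-FIBP#1 overlapped with Scramble. Among paralog groups, number 2 (HOXA2 and HOXB2) went from 24.76% of the sum to 11.41% and 13.62%, and number 7 (HOXA7 and HOXB7) from 19.33% to 25.62% and 26.74%. These sums are descriptions and were not tested.

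**Figure D5:**
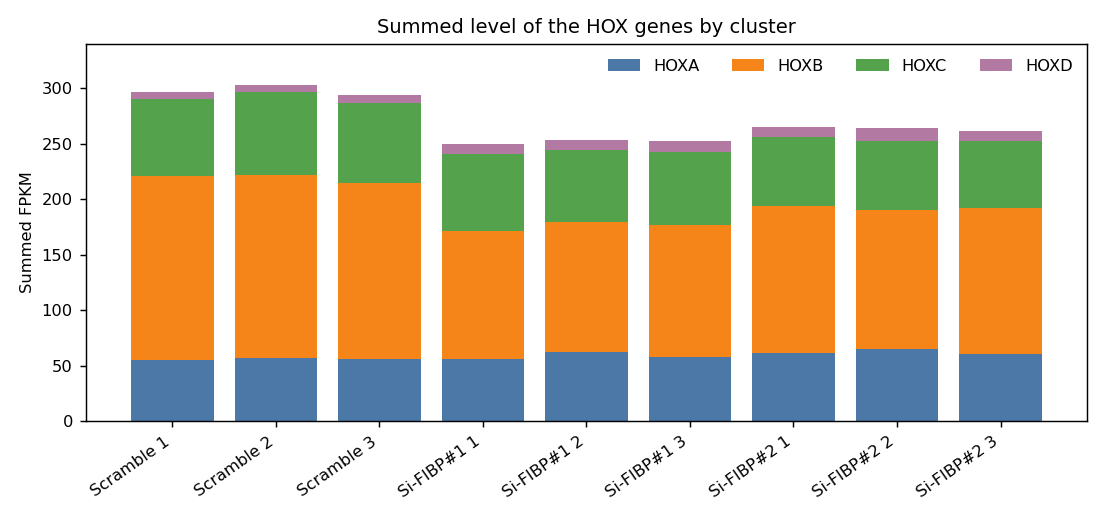
Summed FPKM of the HOX genes in each of the 9 samples, stacked by cluster from HOXA at the bottom to HOXD at the top. The total lies at 293.99 to 303.15 in Scramble and at 249.60 to 265.30 in the 6 depleted samples. The HOXB segment is smaller in all 6, and the HOXC segment is smaller with Si-FIBP#2.

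Of the partners with which HOX proteins bind DNA, 7 of 9 TALE genes were tested. PBX3 and PBX2 were the most abundant at 68.4 and 35.9 FPKM in Scramble, followed by MEIS2 at 15.6. PBX2 was lower with both siRNAs (log2 change -0.51, adjusted p = 0.0018, and -0.52, adjusted p = 0.0017), whereas PBX3 was lower with Si-FIBP#1 alone (-0.58, adjusted p = 6.80e-04, and 0.22, adjusted p = 0.0755) and differed between the siRNAs by 0.79 (adjusted p = 8.43e-04). MEIS2 did not pass (0.34 and 0.26). PBX4, named here after its values were seen, was lower with both siRNAs (-0.99, adjusted p = 1.17e-04, and -0.91, adjusted p = 2.00e-04). Its FPKM were at 40.9% and 44.4% of the Scramble mean of 5.39. By the adjusted p, Si-FIBP#1 left 0 higher and 3 lower (all genes tested 27.8% and 19.9%), Si-FIBP#2 left 1 higher and 2 lower (all genes tested 31.1% and 17.7%), and none was called at 2-fold on log2(FPKM + 1). The median log2 changes were -0.05 and 0.01, where those of all genes tested were 0.07 and 0.11.

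All 22 genes of the MLL and trithorax list were tested. It holds the methyltransferases of histone H3 at lysine 4 and their partners, DOT1L, which methylates H3 at another lysine, the lysine 27 demethylases KDM6A and KDM6B, and AFF1, AFF4, MLLT1 and MLLT3, which act in transcript elongation. By the adjusted p, Si-FIBP#1 left 4 higher and 7 lower, Si-FIBP#2 left 9 higher and 8 lower, with median log2 changes of -0.05 and 0.03, where all genes tested had 27.8% higher and 19.9% lower, then 31.1% and 17.7%, and medians of 0.07 and 0.11. PAXIP1, a subunit of the KMT2C and KMT2D complexes, was called with Si-FIBP#1. It was listed at 13.86, 14.88 and 13.03 FPKM in Scramble, at 7.44, 6.07 and 5.48 with Si-FIBP#1 and at 7.75, 5.68 and 7.40 with Si-FIBP#2 (log2 change -1.03, adjusted p = 1.51e-04, and -0.92, adjusted p = 3.12e-04). The most abundant members were DPY30, PSIP1 and WDR5, at 84.1, 71.6 and 36.9 FPKM in Scramble, of which PSIP1 (-0.29 and -0.33) and WDR5 (-0.24 and -0.37) were lower with both siRNAs. DPY30 passed as higher with Si-FIBP#2 (0.18, adjusted p = 0.0127) and did not pass with Si-FIBP#1 (0.07, adjusted p = 0.2768).

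All 11 genes of Polycomb complex 2, which silences HOX genes through histone H3 at lysine 27, were tested. By the adjusted p, 4 were higher and 5 lower with each siRNA, beside 27.8% and 19.9% of all genes tested for Si-FIBP#1 and 31.1% and 17.7% for the other, and the median log2 changes were 0.00 and -0.18, beside 0.07 and 0.11 over all genes. The most abundant were RBBP7, PHF19 and RBBP4, at 131.9, 103.2 and 73.5 FPKM in Scramble. RBBP7 (-0.34 and -0.18) and RBBP4 (-0.41 and -0.50) were lower with both siRNAs, and PHF19 was lower with Si-FIBP#1 (-0.23, adjusted p = 0.0294) and did not pass with Si-FIBP#2 (-0.17, adjusted p = 0.0828). Its alternative methyltransferases, both named here after their values were seen, moved in opposite directions. EZH2 fell by 0.95 (adjusted p = 5.89e-06) and 0.45 (adjusted p = 6.05e-04) on the log2 scale, and EZH1 rose by 0.38 (adjusted p = 0.0161) and 0.43 (adjusted p = 0.0086). Of the 20 genes of Polycomb complex 1, Si-FIBP#1 left 4 higher and 3 lower (all genes 27.8% and 19.9%), Si-FIBP#2 left 3 higher and 2 lower (all genes 31.1% and 17.7%), with medians of 0.10 and 0.02. PHC2, PHC1 and RING1 led at 88.3, 36.7 and 23.0 FPKM in Scramble, and RING1, an E3 ligase for histone H2A, was higher with both siRNAs (0.78, adjusted p = 1.15e-04, and 0.73, adjusted p = 1.66e-04). PHC2 was higher with Si-FIBP#1 (0.51, adjusted p = 9.60e-06), did not pass with Si-FIBP#2 (0.05, adjusted p = 0.3165) and differed between the siRNAs by -0.46 (adjusted p = 3.12e-04). PHC1 did not pass with either (-0.13 and 0.02).

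Of 18 retinoic acid genes, whose signal switches on 3′ HOX genes in the embryo, 7 were tested, led by RXRB, RARG and RDH10 at 26.0, 19.3 and 8.27 FPKM in Scramble. RDH10, which makes retinal from retinol, was higher with both siRNAs (0.94, adjusted p = 9.76e-04, and 0.57, adjusted p = 0.0146), and RARB and CYP26A1 were not tested, at 0.07 and 0.05 FPKM in Scramble. The receptor gene RXRB was also higher with both (0.38, adjusted p = 0.0040, and 0.39, adjusted p = 0.0036). RARG, another receptor gene, was lower with Si-FIBP#2 (-0.71, adjusted p = 4.50e-04), did not pass with Si-FIBP#1 (-0.05, adjusted p = 0.7078) and differed between the siRNAs by -0.66 (adjusted p = 0.0038). CRABP2, at 7.49 FPKM in Scramble, was lower with Si-FIBP#1 (-0.68, adjusted p = 0.0220) and did not pass with Si-FIBP#2 (-0.09, adjusted p = 0.7434). DHRS3, at 3.69 FPKM in Scramble, did not pass with either siRNA (-0.33 and -0.31), nor did RARA and RXRA. By the adjusted p, 2 of the 7 were higher and 1 lower with each siRNA, which is near the all-gene shares of 27.8% and 19.9%, then 31.1% and 17.7%, with medians of -0.04 and -0.03.

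Of 9 other factors known upstream of HOX genes, 4 were tested, and CDX1, CDX2 and CDX4 were listed at 0 in all 9 samples. GMNN, geminin, which holds back DNA replication and is known to bind HOX proteins, was listed at 87.11, 85.01 and 82.51 FPKM in Scramble, at 42.54, 50.36 and 51.21 with Si-FIBP#1 and at 29.51, 37.89 and 28.02 with Si-FIBP#2. It was called with Si-FIBP#2 (-1.40, adjusted p = 1.04e-05) and lower under 2-fold with Si-FIBP#1 (-0.81, adjusted p = 2.59e-04). CTCF, at 28.8 FPKM in Scramble, was lower with Si-FIBP#1 (-0.14, adjusted p = 0.0458) and did not pass with Si-FIBP#2 (-0.01, adjusted p = 0.8783), and YY1, at 38.2 FPKM, did not pass with either siRNA. GDF11, at 5.29 FPKM, was higher with Si-FIBP#2 (0.45, adjusted p = 0.0211) and did not pass with Si-FIBP#1 (0.21, adjusted p = 0.2411). By the adjusted p, Si-FIBP#1 left 0 higher and 2 lower (all genes 27.8% and 19.9%). Si-FIBP#2 left 1 higher and 1 lower (all genes 31.1% and 17.7%). Whether any of these factors bears on the HOX genes was not tested.

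Within the clusters, 9 of 18 noncoding genes found in the files were tested, and HOTAIRM1 at 8.98, HOXB-AS1 at 6.72 and HOXA-AS2 at 1.60 FPKM in Scramble were the most abundant, of which HOXB-AS1 (-0.10 and -0.24) and HOXA-AS2 (-0.11 and 0.01) did not pass. By the adjusted p, Si-FIBP#1 left 1 higher and 1 lower (all genes 27.8% and 19.9%), and Si-FIBP#2 left 1 higher and 0 lower (all genes 31.1% and 17.7%), with medians of -0.01 and 0.09. The gene higher with Si-FIBP#2 was HOXC-AS3, listed at 0.02, 0.6 and 0.5 FPKM in Scramble. It passed the filter through depleted samples only, so a difference was built into its selection. HOTAIR, in the HOXC cluster, was listed at 0 in Scramble and had means of at most 0.14 FPKM after depletion. Of 13 genes that flank the clusters, 7 were tested, and CBX5, MTX2 and CALCOCO1 led at 41.08, 33.96 and 24.31 FPKM in Scramble. CALCOCO1, next to the HOXC cluster on the side of HOXC13, was higher with both siRNAs (0.63, adjusted p = 3.55e-04, and 0.41, adjusted p = 0.0042), and CBX5 was lower (-0.46, adjusted p = 6.80e-04, and -0.26, adjusted p = 0.0154), while MTX2 did not pass (-0.03 and 0.09).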

How the data were processed

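The authors deposited 1 table per sample of FPKM, rounded to 2 decimals, for Ensembl and for assembled transcripts. The unit was read from the values. The submitters' processing notes name HISAT2 and StringTie, and the genome build and annotation are not given in the sources used here. FPKM were summed per gene identifier, and assembled transcripts that carry a gene's identifier were included. Genes that reached 1 FPKM in 3 or more of the 9 samples entered a limma 3.58.1 test in R 4.3.3 (mean-variance trend, 1 fit over all samples) on log2(FPKM + 1), a scale that understates changes of low genes, with Benjamini-Hochberg adjustment over all 14985 genes. A change was called at an adjusted p below 0.05 and more than 2-fold. Values are mean ± SD of 3 samples, or log2 change ± SE. Depth was estimated from genes with 1 transcript, and the step was tested on simulated data, as was the fit. The estimate is approximate. Gene models come from GENCODE release 29 (GRCh38) and promoters from RefSeq. The HOX genes and all lists were chosen with earlier results of these data known. Values per sample are given for HOX genes with a group mean of at least 1 FPKM or called against Scramble. From each list, the genes called against Scramble and the 3 with the highest Scramble mean are named. Some other list genes are named outside this rule. They include PBX4, EZH1, EZH2, RARB, CYP26A1, CRABP2, DHRS3, RARA, RXRA, CDX1, CDX2, CDX4, GDF11, HOXC-AS3 and HOTAIR. Values of 1 HOX gene are not reported here. Alternatives were a pseudocount of 0.1, no filter, a filter of 5 FPKM, TPM or median ratio scaling, annotated transcripts only, only the groups compared, no fold threshold, leaving out each sample, and a block for the replicate number. Tables used Python 3.11.15 and pandas 2.3.3.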

Additional observations from a re-analysis of the deposited data

Results flagged for a closer look

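For 5 HOX genes the test of Si-FIBP#2 against Si-FIBP#1 gave an adjusted p below 0.05, 2 higher and 3 lower of 25, where 9.58% of all genes tested were higher and 5.8% lower. The log2 difference was -0.60 for HOXA5 and 0.33 for HOXA9, where neither change against Scramble was shared by both siRNAs. HOXB2, at 0.30, was lower with both siRNAs and fell less with Si-FIBP#2. HOXC6, at -0.29, was lower with both and fell more with Si-FIBP#2. HOXC8 differed by -0.20 and did not pass against Scramble with either. None reached 2-fold. The HOXB2 difference passed under all 17 alternatives (adjusted p 0.0073 to 0.0455). HOXC8 no longer passed the adjusted p under 13 of 17 (up to 0.1304) and HOXC6 under 11 (0.105). HOXA5 no longer passed under 7 (0.1332) and HOXA9 under 4 (0.0602). Of these alternatives 9, 7, 5 and 3 left out 1 sample.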

How the results depend on the processing

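HOXB2, HOXB4, HOXB7, HOXB8 and HOXC6 kept their direction and passed the adjusted p against Scramble with each siRNA under every alternative that tested them. Counts depended on the fold limit and the pseudocount. Below, counts are given for Si-FIBP#1, Si-FIBP#2, both siRNAs and Si-FIBP#2 against Si-FIBP#1, in that order. With no fold limit, 12, 13, 13 and 5 HOX genes and 7146, 7309, 7938 and 2304 of all genes were called. With a pseudocount of 0.1, 5, 6, 6 and 0 HOX genes and 1498, 1411, 1418 and 172 of all genes were called, which is by construction of a scale that weighs low genes more. In each comparison with Scramble these included HOXB5 and HOXB13, whose difference was built into their selection. Leaving out 1 sample at a time gave 1 to 3 HOX genes for Si-FIBP#1 (1 without its replicate 1), 2 to 3 for Si-FIBP#2, 2 to 3 for both and 0 between the siRNAs, where all genes called ran from 73 to 128 (128 without Si-FIBP#2 replicate 2). With annotated transcripts only, HOXA, HOXC and HOXD held 20.13%, 23.01% and 2.53% of the summed HOX FPKM in Scramble, and HOXC4 turned to 0.216 with Si-FIBP#2 and to 0.064 with both siRNAs, since 67.8% of its level is in assembled transcripts. Median ratio scaling moved the median change of all genes with Si-FIBP#2 from 0.11 to 0.00 and the share of calls that were higher from 57.9% to 42.3%. Between groups, deviations from the group mean correlated at -0.057 to 0.103 for same-numbered samples and at -0.142 to 0.049 for differently numbered ones. These small values do not settle whether the replicate numbers pair the samples. The replicate block gave 2, 3, 3 and 0 HOX genes and 853, 760, 725 and 88 of all genes. Over named HOX genes and alternatives, 1483 values kept direction and side of the adjusted p threshold. Another 107 no longer passed the adjusted p, 23 came to pass it and 2 turned. These counts leave the fold limit aside. The fit of only the groups compared gives no value for both siRNAs, and the filter of 5 FPKM none for low HOX genes. Depth limits the genes below about 0.1 FPKM.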
